A study of Homo sapiens with 22 samples.

Results

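The genes described are 10 members of the MYC network: MYC, MYCN, MYCL, MAX, MXD1, MXD3, MXD4, MXI1, MNT and MLX. They were listed by symbol, with earlier results of these data known. Each symbol was matched to 1 Ensembl identifier among the 63677 genes of the expression tables. The study asked what the CASC15-003 and CASC15-004 long non-coding RNAs, transcribed from the neuroblastoma susceptibility locus at 6p22.3, do in neuroblastoma cells, and measured total RNA by sequencing after knockdown in 22 libraries. Of these, 15 were SH-SY5Y monolayers, 5 were SH-SY5Y spheres and 2 were KELLY cells.

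SH-SY5Y is a human neuroblastoma cell line without MYCN amplification. All SH-SY5Y cells, controls included, carried a stable lentiviral shRNA and were selected with puromycin. Control cells carried a scrambled shRNA, sh003 cells an shRNA against CASC15-003, and sh004 cells an shRNA against CASC15-004, with 2 different shRNAs for each target. By title, monolayers were collected at day 0 (3 control, 3 sh003 and 2 sh004 libraries) or after 7 days of retinoic acid, at a dose that the labels give as 10 mM (2 control, 3 sh003 and 2 sh004 libraries). The treatment labels give 10% serum without retinoic acid at day 0 and 1% serum with it at day 7, while the growth label gives 10% serum for routine culture and for differentiation alike. In 2 sh003 libraries these labels go against the title: shRNA 2 of batch 1 at day 0 is labelled with retinoic acid and 1% serum, and shRNA 1 of batch 2 at day 7 with 10% serum and no retinoic acid. Both were grouped by title. With the titles taken as right, every day 7 library had retinoic acid, so the drug, the days in culture and any change of serum cannot be told apart. Spheres were grown in sphere-forming medium (1 control, 2 sh003 and 2 sh004 libraries). KELLY, a neuroblastoma line with amplified MYCN, received a control or a SOX9 siRNA, with 1 library each. The labels give collection 48 h after transfection, for KELLY and for all other libraries alike. The monolayer titles name 3 batches, and all sh004 monolayers are of batch 2.

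MYC, MYCN and MYCL are basic helix-loop-helix leucine zipper factors that bind E-box DNA as dimers with MAX and activate genes of ribosome production, nucleotide synthesis and growth. MXD1, MXD3, MXD4, MXI1 and MNT also pair with MAX, recruit SIN3 and histone deacetylase complexes, and repress many of the same genes. MLX is a partner parallel to MAX that joins the glucose-sensing Mondo proteins and some MXD proteins. In neuroblastoma, amplification of MYCN marks high-risk disease, tumours without it often express MYC, and retinoic acid is known to lower MYC family expression while cells differentiate.

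The knockdown groups are defined by 4 designed shRNA sequences, which are printed because each group of libraries mixes its pair of shRNAs. None of the 4 was designed against a network member. They are written 5′ to 3′ as the labels give them.
sh003 shRNA 1: ctagcactgacctccttcatt
sh003 shRNA 2: ctttccatcagccaacaatat
sh004 shRNA 1: caggctgttcccagggattta
sh004 shRNA 2: taggaataccttacatccaat

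Network dimers bind the E-box CACGTG, so the 250 bases before each start site in the RefSeq promoters (GRCh38.p14) were searched for these letters, which read the same on both strands. Promoters were matched for 9 of the 10 members (all but MYC), and 3 of them held a match: MXD4, MNT and MLX. Over all 35116 promoters, 6.34% held one. Among MYC-activated genes of metabolism and growth 8 of the 18 with a matched promoter held it, and among MYC-activated genes of ribosome biogenesis 0 of 13. Members and lists were counted by gene, and the share over all by promoter. The member sites are printed with those of HK2, LDHA and PPAT, whose RNA differed between the sphere groups. The matches of SRM, ODC1, EIF4E, TERT and CDK4, also of the metabolism and growth list, are not printed. A choice made by RNA difference cannot link a site to that difference. HK2 and LDHA each hold 2 matches, of which the one nearer to the start is printed. Capitals mark the E-box, and a match is a description of the letters only.
MXD4, chr4:2262330-2262359, minus strand: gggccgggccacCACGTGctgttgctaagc
MNT, chr17:2401236-2401265, minus strand: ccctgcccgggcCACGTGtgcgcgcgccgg
MLX, chr17:42567038-42567067, plus strand: gcgggcgcgggtCACGTGggcacgccaccc
HK2, chr2:74835009-74835038, plus strand: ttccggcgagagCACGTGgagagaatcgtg
LDHA, chr11:18394464-18394493, plus strand: cagcccgactcaCACGTGggttcccgcacg
PPAT, chr4:56435780-56435809, minus strand: aacggagatttcCACGTGcagcaaatacag

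Libraries held 11.9 to 37.9 M assigned reads in monolayers, 27.8 to 62.1 M in spheres and 24 to 25.5 M in KELLY. Levels are RPKM, reads per kilobase of gene per M assigned reads. A single length was used for each gene, which need not be that of the transcript expressed. Levels of different genes can thus be compared only roughly. As a check of treatment, CYP26A1, which degrades retinoic acid, reached at most 0.271 RPKM over the 8 monolayers titled day 0 and at least 9.001 RPKM over the 7 titled day 7, the 2 libraries with contradicting labels included. That day 7 minimum was sh004 shRNA 2, against 301 RPKM with sh004 shRNA 1 and up to 687 RPKM elsewhere. The 11 neuroblast markers summed to between 698 and 4115 RPKM over the 22 libraries. CASC15, the knockdown target, is listed as 1 gene for all its transcripts, at 1.74 ± 0.563 RPKM (SD, n = 3) in control, 2.06 ± 0.549 (n = 3) with sh003 and 1.15 ± 0.0152 (n = 2) with sh004 at day 0, so the gene level does not check the knockdown of either transcript. SOX9 read 5.61 RPKM with control siRNA and 0.974 with SOX9 siRNA in KELLY. Of 8 markers of fibroblast, endothelial, immune and epithelial cells, 1 passed the filter in monolayers. This was PDGFRB, a receptor of fibroblasts and pericytes, at 10.1 to 18.3 RPKM at day 0 and 10.8 to 35.3 RPKM at day 7, not called in any retinoic acid comparison (limma adjusted p of 0.123 or higher, and of 0.0535 or higher with the block). In spheres PDGFRB was lower with sh004 than with sh003 (6.04 ± 0.485 against 14.7 ± 2.23 RPKM, SD, n = 2 each, limma adjusted p = 0.0102). The 8 markers summed to 11.3 to 18.95 RPKM in control at day 0 and 13.7 to 26.7 at day 7, 17.4 to 18.9 and 28.9 to 36.0 with sh003, and 10.9 to 11.3 and 10.96 to 23.96 with sh004, and their part in the results was not tested. PTPRC, an immune marker, was at 0.0841 RPKM or lower in every library, the epithelial KRT19 read 5.99 to 6.08 RPKM and the endothelial CDH5 0.636 to 1.495 RPKM in KELLY, and PECAM1 is listed at 0 throughout under its matched identifier. In bulk RNA, fewer cells of a type and less RNA per cell cannot be told apart.

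In control cells at day 0 the levels per length were ordered as follows. MYC (14.1 ± 3.69 RPKM), MLX (13.1 ± 0.819) and MXD4 (13.03 ± 1.06; SD, n = 3 for all) stood highest, and their ranges overlapped. MAX (9.41 ± 1.54), MXI1 (8.53 ± 1.56), MNT (7.78 ± 1.81) and MXD3 (7.46 ± 3.26) followed with ranges that overlapped each other, and the ranges of MAX and MXD3 also overlapped that of MYC. MYCN (2.85 ± 0.484), MXD1 (1.43 ± 0.24) and MYCL (0.578 ± 0.18) were lowest, in that order without overlap. Of the summed RPKM of MYC, MYCN and MYCL, MYC made up 72.8 to 85.6% in these 3 libraries.

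**Figure D1:**
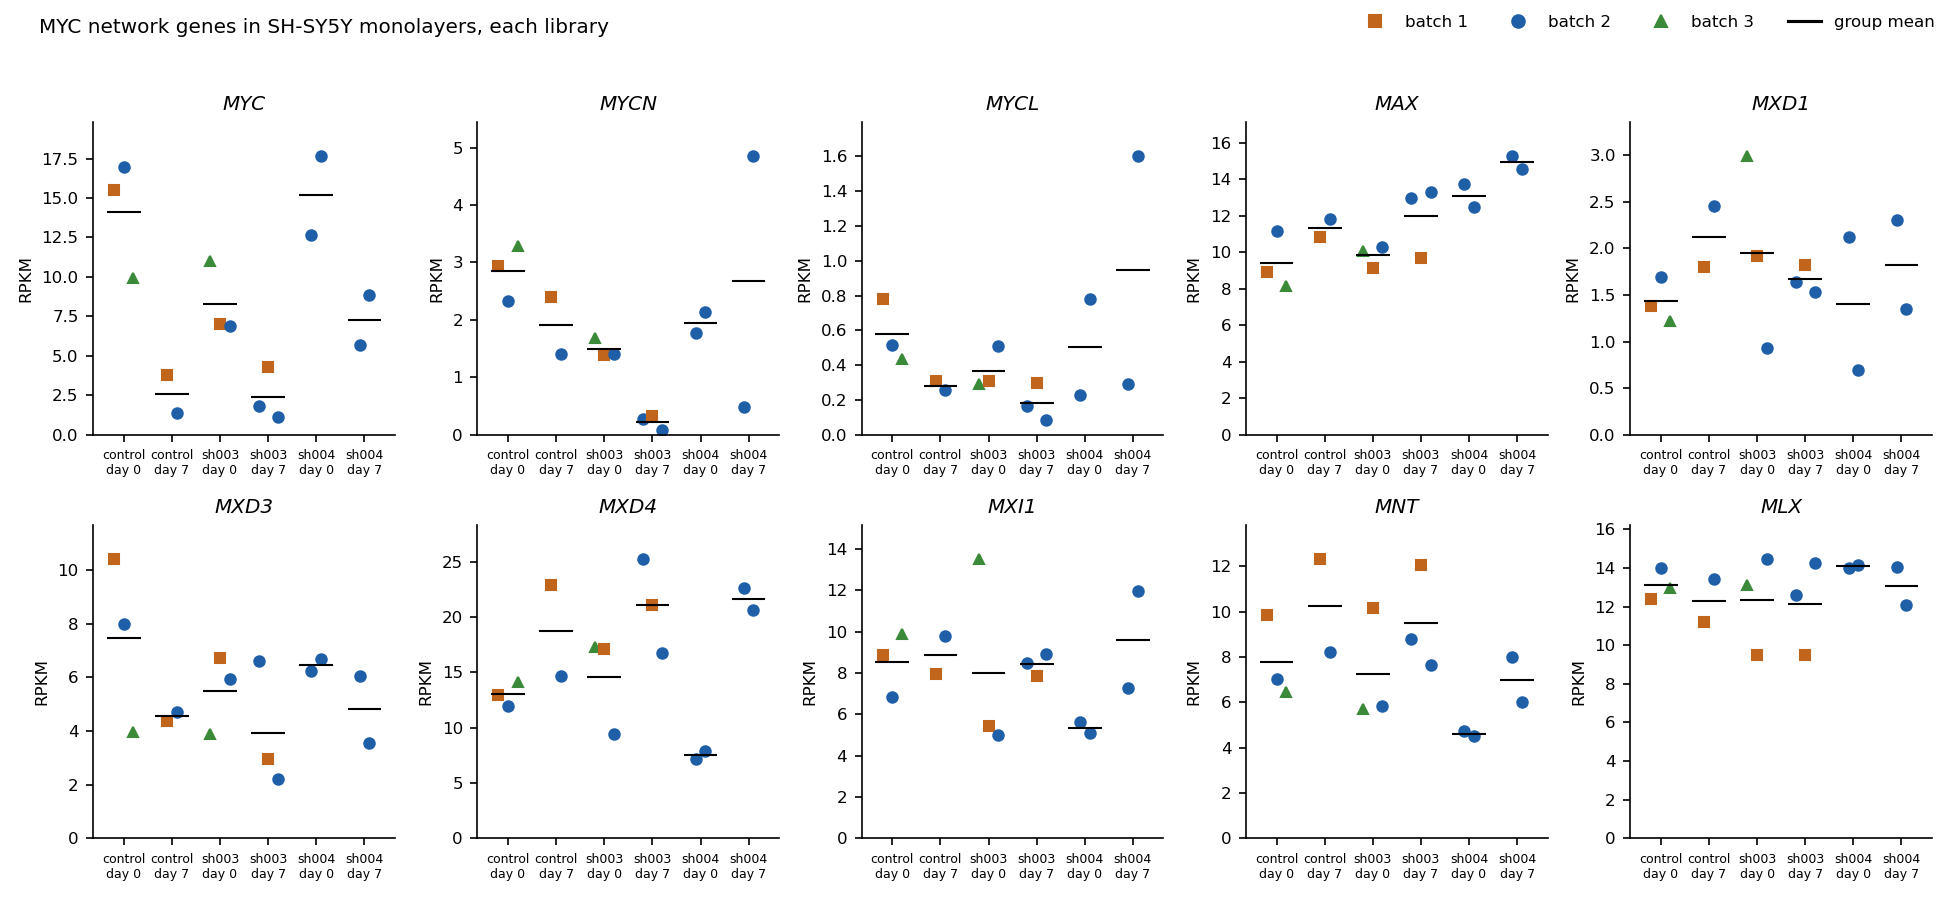
RPKM (vertical axis, from 0) of each member in the 15 SH-SY5Y monolayer libraries by shRNA group and day, with 1 symbol per library, symbol shape for batch and a black line for the group mean. MYC lies lower at day 7 than at day 0 in every shRNA group without overlap, and MYCN and MYCL have a single high library among the sh004 libraries of day 7.

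MYC fell with 7 days of retinoic acid in control cells. It read 15.5, 16.95 and 9.96 RPKM in the batch 1, 2 and 3 control libraries of day 0, and 3.76 and 1.36 RPKM in the batch 1 and 2 libraries of day 7. Both day 7 libraries thus lay below all 3 day 0 libraries. On the scale of log2(RPKM + 0.5), which understates changes of low genes, the difference was -2.34 (SE 0.47, 95% interval -3.38 to -1.31), a 5.08-fold fall (limma, adjusted p = 0.0459). With batch as a block it was -2.35 (SE 0.43, adjusted p = 0.0144). Of the 19461 genes tested, 0.956% were called in this comparison, and 7.68% with the block, where called means a Benjamini-Hochberg adjusted p under 0.05. MYC was the 1 called among the 9 members tested.

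With sh003, MYC read 11, 7.00 and 6.88 RPKM at day 0 and 1.81, 4.30 and 1.13 RPKM at day 7. The groups did not overlap, and the difference was -1.71 (SE 0.42, limma adjusted p = 0.0604), or -1.61 (SE 0.39, adjusted p = 0.0257) with the block, where it was called. With sh004, MYC read 12.6 and 17.7 RPKM at day 0 and 5.69 and 8.88 RPKM at day 7. These groups did not overlap either, and the difference of -1.02 (95% interval -2.16 to 0.12) was not called (limma adjusted p = 0.685, or 0.301 with the block). Among all genes, 2.35% were called with sh003 and 0.38% with sh004, or 14.3% and 2.11% with the block. In 6 of 6 pairs of libraries that share batch and shRNA, MYC was lower at day 7, by a log2 difference of -3.23 to -0.65.

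The change of MYC with retinoic acid was not shown to differ between shRNA groups. It was smaller than in control by 0.63 with sh003 (95% interval -0.76 to 2.02) and by 1.32 with sh004 (95% interval -0.21 to 2.86), each with a limma adjusted p of 1.00. The control call was lost with a pseudocount of 0.1 (limma adjusted p = 0.0536), with no filter on low values (0.0557), in a fit of only the control groups (0.295), without the libraries whose tags contradict the title (0.0995) and without batch 1 (0.0923). It also depends on single libraries: without the block it was kept in 4 of 15 fits that each left out 1 library (limma adjusted p from 0.0255 to 0.301), with a log2 difference of -2.94 to -1.75. With the block it was kept in 11 of 15, and lost without the batch 1 or the batch 2 control library of either day (limma adjusted p from 0.0566 to 0.143). The sh003 call with the block was lost without sh003 shRNA 1 of batch 2 at day 7, or without sh003 shRNA 2 of batch 2 at either day (limma adjusted p = 0.0505, 0.0819 and 0.15).

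MYCN, the family member amplified in KELLY, was not called in any retinoic acid comparison. In control it read 2.94, 2.33 and 3.29 RPKM at day 0 and 2.40 and 1.41 RPKM at day 7, a difference of -0.50 (95% interval -1.68 to 0.68, limma adjusted p = 0.791). With sh003 it read 1.68, 1.40 and 1.41 RPKM at day 0. The sh003 libraries of day 7 gave 0.271, 0.327 and 0.0831 RPKM, which rest on 23, 14 and 6 reads and lie below every other monolayer library. The difference with sh003 was -1.47 (SE 0.48, limma adjusted p = 0.125), or -1.34 with the block (adjusted p = 0.105).

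The pair of sh004 shRNAs went opposite ways for MYCN. Its level with shRNA 1 was 1.77 RPKM at day 0 and 0.476 at day 7, and with shRNA 2 it was 2.14 and 4.86 RPKM. All groups share 1 estimate of the spread, which this pair widens. Without sh004 shRNA 1 of day 7 the sh003 difference was called (limma adjusted p = 0.00914, or 0.00182 with the block), as it was without sh004 shRNA 2 of day 7 (limma adjusted p = 0.0106, or 0.00196 with the block). The same sh004 shRNA 2 library had the lowest CYP26A1 of day 7 and a summed level of 11 neuroblast markers of 3023 RPKM, against 698 RPKM in its partner. Their part in the MYCN result was not tested.

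MYCL, the least expressed of the family, stayed under 1 RPKM in all monolayers but that library, where it read 1.60 RPKM. It reached the minimum of 1 RPKM in fewer than 2 libraries and was not tested. The other sh004 library of day 7 gave 0.291 RPKM. Across the day 7 libraries of control and sh003 MYCL lay between 0.0854 and 0.308 RPKM, and across those of day 0 between 0.291 and 0.781 RPKM.

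MAX, the shared dimer partner, was higher at day 7 in 6 of 6 pairs, by 0.08 to 0.36 on the log2 scale, and was not called. It went from 9.41 ± 1.54 RPKM (SD, n = 3) to 11.3 ± 0.718 (n = 2) in control, from 9.83 ± 0.611 (n = 3) to 11.99 ± 2.0 (n = 3) with sh003, and from 13.1 ± 0.888 (n = 2) to 14.9 ± 0.516 (n = 2) with sh004. The 95% interval of the log2 difference in control was -0.09 to 0.62. MLX, the parallel partner, had log2 differences of -0.22 to 0.00 over the 6 pairs and 95% intervals within -0.59 and 0.37 in the 3 comparisons.

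MXD4, a repressor partner of MAX found in differentiating cells, was called higher at day 7 in both knockdown groups once batch was a block. With sh004 it read 7.20 and 7.85 RPKM at day 0 and 22.6 and 20.6 RPKM at day 7. The difference was 1.46 (SE 0.30, limma adjusted p = 0.0795), a 2.75-fold change, and was called with the block (SE 0.23, adjusted p = 0.013). All sh004 monolayers share a batch, so the block left this difference at 1.46 and changed only the estimate of the spread. With sh003 it read 17.3, 17.2 and 9.40 RPKM at day 0 and 25.2, 21.1 and 16.8 RPKM at day 7, with overlap. That difference was 0.54 (limma adjusted p = 0.261), or 0.70 with the block (SE 0.20, adjusted p = 0.0454). Among all genes, 14.3% were called with sh003 and 2.11% with sh004 under the block.

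In control, MXD4 read 12.99, 11.99 and 14.1 RPKM at day 0 and 22.9 and 14.7 RPKM at day 7, a difference of 0.48 that was not called (95% interval -0.11 to 1.07, limma adjusted p = 0.473, or 0.13 with the block). It was higher at day 7 in 6 of 6 pairs. The change with sh004 exceeded that in control by 0.98 (95% interval 0.10 to 1.86), with a limma adjusted p of 1.00 over all genes. The blocked sh003 call of MXD4 was lost in 12 of 15 fits that left out 1 library (adjusted p from 0.041 to 0.307), and the blocked sh004 call was lost without either sh004 library of day 0 (limma adjusted p = 0.078 and 0.0837).

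The other repressor partners were not called in any retinoic acid comparison. MNT, the most widely expressed of them, was higher at day 7 in 6 of 6 pairs, by 0.21 to 0.70 on the log2 scale. Its group differences were 0.37, 0.39 and 0.54 in control, sh003 and sh004, with limma adjusted p of 0.64, 0.486 and 0.759 and, with the block, of 0.291, 0.0924 and 0.111. MXD3, known from proliferating cells in S phase, was lower in 6 of 6 pairs, by -1.26 to -0.04, with group differences of -0.56, -0.54 and -0.43 (limma adjusted p of 0.547 or higher, and of 0.135 or higher with the block). Leaving out 1 library at a time, the sh003 difference of MXD3 ranged from -0.95 to -0.25. With the block MXD3 was called with sh003 without shRNA 1 of batch 2 at day 7 (log2 -1.24, limma adjusted p = 0.0118), and MNT with sh003 without either sh004 library of day 7 (0.041 and 0.0407) and with sh004 without sh004 shRNA 2 of day 7 (0.0222). MXI1 was higher in 5 of 6 pairs and MXD1 in 5 of 6. In the annotation 18% of the MXD3 exon bases overlap RAB24 on the same strand and 22.5% overlap PRELID1 on the opposite strand, and 18.1% of those of MLX overlap PSMC3IP, so the counts of MXD3 and MLX are less certain.

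Read as sums of RPKM, the balance between activators and repressors differed between the days in each shRNA group. The sum of MYC, MYCN and MYCL was 13.7 to 19.8 RPKM in control at day 0 and 3.03 to 6.47 at day 7. The sum of MXD1, MXD3, MXD4, MXI1 and MNT was 35.5 to 43.5 RPKM and 39.8 to 49.3 RPKM. The ratio of the first sum to the second ranged from 0.384 to 0.557 at day 0 and from 0.076 to 0.131 at day 7 in control. With sh003 it ranged from 0.211 to 0.324 and from 0.035 to 0.108, and with sh004 from 0.564 to 0.83 and from 0.14 to 0.353. Day 7 lay below day 0 without overlap in all 3 groups, a description with no test. The size of the sums and of their ratio depends on the gene lengths used. MYC made up 44.9 to 58.1% of the first sum in control at day 7, where MYCN made up 37.1 to 46.6%.

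**Figure D2:**
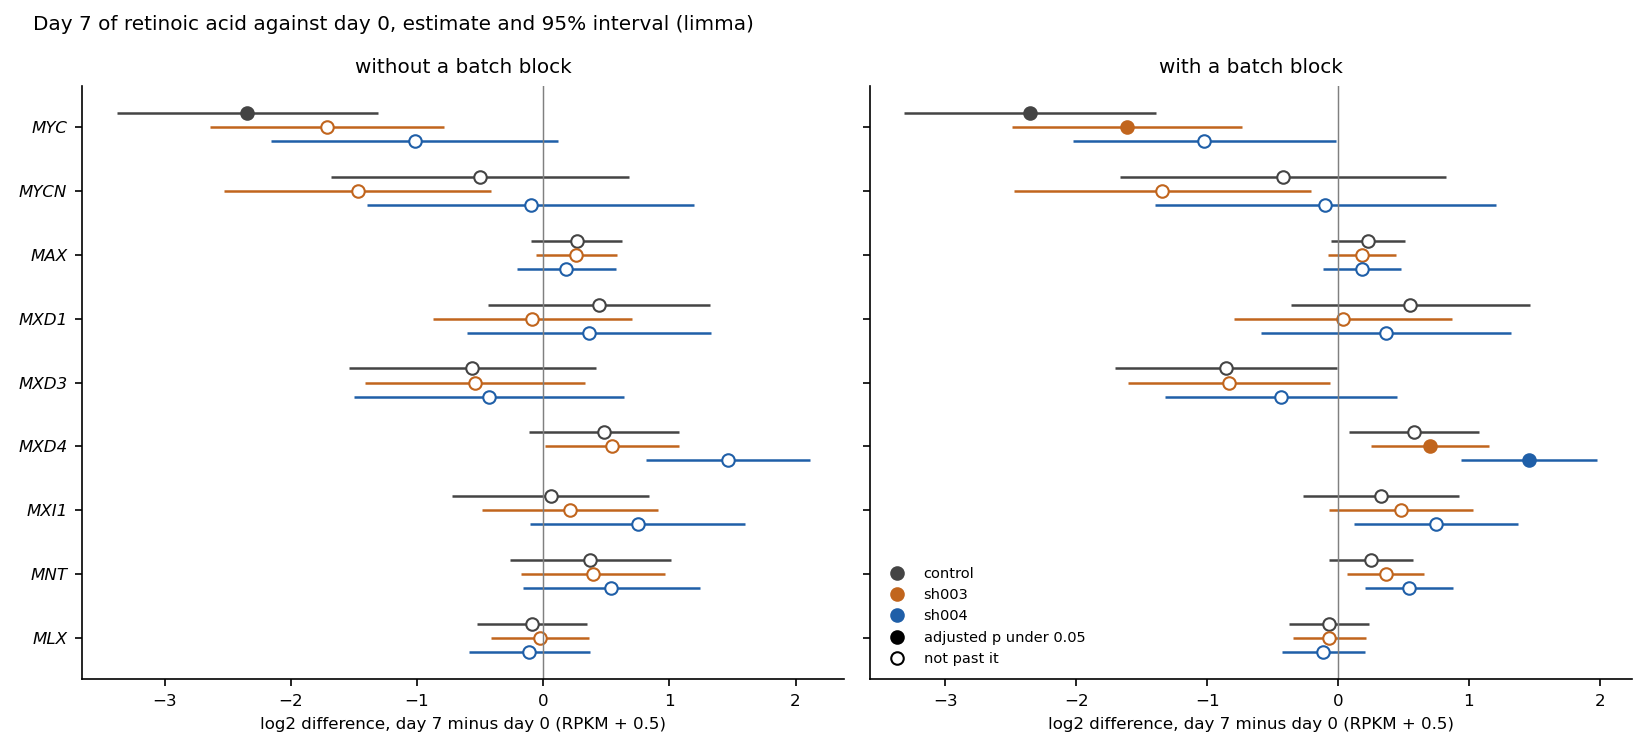
Difference between day 7 of retinoic acid and day 0 (horizontal axis, log2 of RPKM + 0.5) for the 9 members tested in control, sh003 and sh004 cells, without and with batch as a block, as limma estimates with 95% intervals and filled points where the adjusted p was under 0.05. MYC is to the left of 0 in all 3 groups, and MXD4 is to the right of 0 and called with sh003 and sh004 in the fit with the block.

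Genes that MYC is known to activate mostly read lower at day 7, though few of them passed the test without the block. Of 18 genes of ribosome biogenesis, 17 were tested (BOP1 is listed at 0), and all 17 had lower values at day 7 in each of the 3 shRNA groups. Without the block 1, 1 and 0 of them were called in control, sh003 and sh004, and with the block 9, 10 and 1, all lower. Their median log2 difference with the block was -0.62, -0.53 and -0.37, against 0.10, 0.07 and 0.02 over all genes tested. Without the block, tested genes of up to 960 bases had medians of 0.437, 0.173 and 0.011. Longer genes, grouped by length, had medians of 0.032 to 0.101, -0.011 to 0.071 and 0.014 to 0.024. Each ribosome biogenesis gene tested measures 1578 bases or more, and the part of length was not tested. Under quantile normalization without the block 16 of 17 read lower with sh003 and none was called in any group. NOP58, a core protein of box C/D small nucleolar RNPs, fell from 36.7 ± 1.27 (n = 3) to 21.9 ± 1.34 RPKM (SD, n = 2) in control (log2 -0.73, SE 0.13, limma adjusted p = 0.0276) and from 30.6 ± 4.36 to 19.0 ± 1.37 RPKM (n = 3 each) with sh003 (log2 -0.66, SE 0.12, limma adjusted p = 0.016). UBTF, a factor of RNA polymerase I, was the gene called with sh004, from 53.7 ± 0.186 to 32.2 ± 3.25 RPKM (n = 2 each; log2 -0.73, limma adjusted p = 0.527, or 0.0247 with the block).

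Of 20 MYC-activated genes of metabolism, polyamine synthesis and growth, 1, 1 and 0 were called in control, sh003 and sh004, and 5, 8 and 0 with the block, all lower. Over all genes 0.956%, 2.35% and 0.38% were called, and 7.68%, 14.3% and 2.11% with the block. Of the 20, 19, 17 and 17 read lower without the block and 19, 18 and 17 with it. The median with the block was -0.60, -0.45 and -0.40. SHMT2, a mitochondrial serine-to-glycine enzyme, fell from 20.7 ± 3.22 (n = 3) to 8.54 ± 3.72 RPKM (SD, n = 2) in control (log2 -1.28, SE 0.25, limma adjusted p = 0.0376). MTHFD2, the next enzyme of the mitochondrial folate pathway, fell from 14.8 ± 4.54 to 5.42 ± 0.555 RPKM (n = 3 each) with sh003 (log2 -1.34, SE 0.28, limma adjusted p = 0.0316). Among 15 cofactors, RUVBL1, an ATPase of MYC-bound chromatin complexes, fell in control (29.4 ± 2.51 to 18.1 ± 0.707 RPKM, log2 -0.68, limma adjusted p = 0.0322) and with sh003 (26.1 ± 3.09 to 18.0 ± 0.554 RPKM, log2 -0.52, limma adjusted p = 0.0394).

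Of 10 genes that MYC is known to repress, 8 were tested, and 1 was called higher in each shRNA group with the block and none without it. That gene was TGM2, a transglutaminase also known as a retinoic acid-induced gene, with log2 differences in control, sh003 and sh004 of 5.49, 5.62 and 4.83 with the block (limma adjusted p = 0.0032, 0.0012 and 0.00957) and of 3.91, 3.98 and 4.83 without it (limma adjusted p = 0.311, 0.165 and 0.475). Over all genes 0.956%, 2.35% and 0.38% were called in control, sh003 and sh004, and 7.68%, 14.3% and 2.11% with the block. Of 5 proliferation markers all had lower values in the 3 groups, with 2 called with sh003 (CDK1 and PCNA), 5 with the block, and none in control or sh004 under either fit. Their summed level was 393 to 487 RPKM in control at day 0 and 182 to 308 at day 7, 273 to 393 and 101 to 210 with sh003, and 453 to 539 and 241 to 380 with sh004. Their part in the lower MYC and in the lower MYC-activated genes was not tested.

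**Figure D3:**
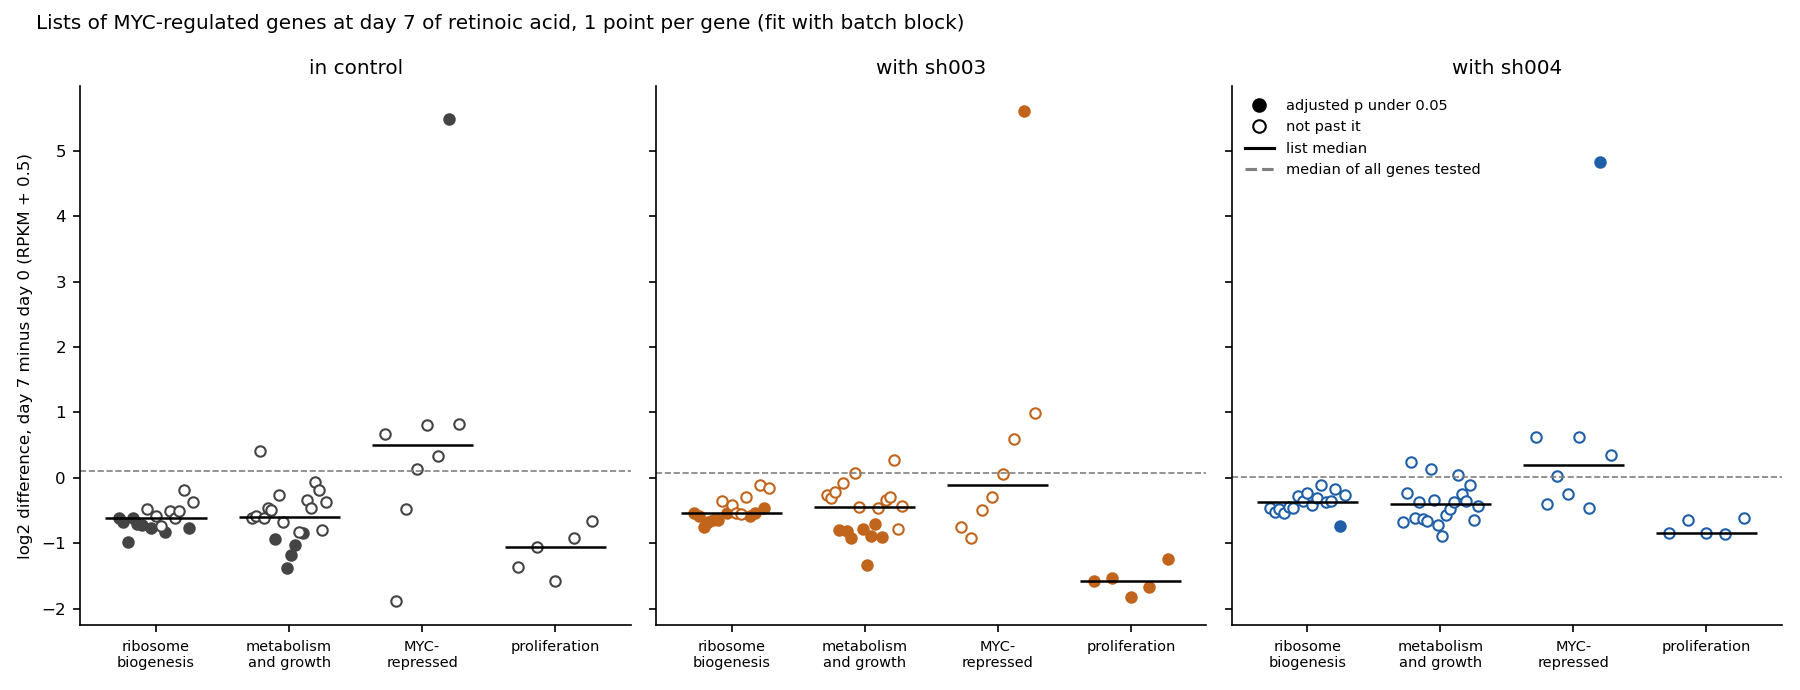
Difference between day 7 and day 0 (vertical axis, log2 of RPKM + 0.5, fit with batch as a block) of each tested gene in 4 lists, in control, sh003 and sh004 cells, with filled points for an adjusted p under 0.05, a black line for the list median and a dashed line for the median of all genes tested. Every tested ribosome biogenesis gene lies below 0 in the 3 panels (1 lies above it with sh003 under quantile normalization), and TGM2 stands alone near 5 among the MYC-repressed genes.

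The genes whose levels followed MYC most closely over the 15 monolayers were TWNK, a mitochondrial DNA helicase (Pearson's r = 0.967 on the log2 scale, n = 15), EBNA1BP2 (0.957), EIF3B (0.956), FLAD1 (0.944) and PES1 (0.942). EBNA1BP2 and PES1 act in ribosome assembly and EIF3B in translation initiation. For MYCN they included ALDH1A3, an enzyme that makes retinoic acid (0.944), IGSF3 (0.929), NPTX2 (0.925) and INSM2 (0.922). Among the members, MYC and MYCN correlated at 0.679 and MYCN and MYCL at 0.752, while MYC and MXD4 correlated at -0.547 and MNT and MLX at -0.709. These libraries share treatments and batches, and the values describe them only.

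No member was called between either knockdown and control, at day 0 or day 7, with or without the block. Calls among all genes were also few: 0.00514% for sh003 at day 0 (0.252% with the block), 0% for sh003 at day 7 (0.00514%), 0% for sh004 at day 0 (0% with the block) and 0% for sh004 at day 7 (0.226%). Between sh004 and sh003 at day 7 they were 0.0206% (0.714%). For the test of whether the day 7 change differed from that in control they were 0% with sh003 (0% with the block) and 0% with sh004 (0.0103%). In limma fits without the block, the counts at an unadjusted p under 0.05 were 1405 for sh003 at day 7, 378 for sh004 at day 0 and 1564 for sh004 at day 7, and 284 for each test of a different change. With the block the counts for the tests that gave no call were 719 for sh004 at day 0 and 731 for the different change with sh003.

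MYCN was lower with sh003 than in control at both days without overlap, with the widest gap of the 9 members tested at day 7. At day 0, where MYC differed by a like amount, its 3 sh003 libraries (1.40 to 1.68 RPKM) lay below the 3 control libraries (2.33 to 3.29 RPKM), a difference of -0.74 (95% interval -1.80 to 0.32, limma adjusted p = 1.00, or 0.587 with the block). At day 7 the sh003 libraries (0.0831 to 0.327 RPKM) lay below the controls (1.41 and 2.40 RPKM), a difference of -1.71 (95% interval -2.89 to -0.53, limma adjusted p = 0.574, or 0.219 with the block). Against the control of the same batch and day, MYCN was lower in 3 of 3 sh003 libraries at day 0, by -0.86 to -0.57, and in 3 of 3 at day 7, by -1.81 to -1.31. MYCN thus did not pass the test over all genes. Its interval at day 7 lies below 0 but is not adjusted for the number of genes tested or for naming the widest gap. The sh003 values of day 7 rest on 6 to 23 reads.

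MYC at day 7 was higher with sh004 (5.69 and 8.88 RPKM) than in the control libraries (3.76 and 1.36 RPKM) and the sh003 libraries (1.13 to 4.30 RPKM), without overlap. The difference from control was 1.44 (95% interval 0.30 to 2.57, limma adjusted p = 0.551, or 0.186 with the block), and against the batch 2 control it was 1.74 and 2.34. The difference from sh003 was 1.54 (95% interval 0.50 to 2.58, limma adjusted p = 0.274, or 0.0868 with the block). MXD4 and MNT in the sh004 libraries of day 0 (7.20 and 7.85 RPKM, and 4.73 and 4.50 RPKM) lay below all control libraries of that day, by -0.75 (95% interval -1.34 to -0.16) and -0.67 (95% interval -1.31 to -0.03), each with a limma adjusted p of 1.00. With the block the MXD4 difference was -0.46. MYC at day 0 differed from control by -0.73 with sh003 (95% interval -1.66 to 0.20, limma adjusted p = 0.975) and by 0.11 with sh004 (95% interval -0.92 to 1.15, limma adjusted p = 1.00).

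The MYC-activated lists held no called gene between a knockdown and control. At day 7 all 17 ribosome biogenesis genes tested read higher with sh004 than in control (median log2 difference 0.31, against -0.15 over all genes), and at day 0 all 17 read lower with sh003 than in control (median -0.24, against -0.06), or 16 of 17 under median-ratio or quantile scaling. Between sh004 and sh003 at day 7, all 17 read higher with sh004 (median 0.38, against -0.09), or 16 of 17 under quantile normalization. TFRC, the transferrin receptor, was called among the metabolism and growth genes with the block (27.3 ± 2.07 RPKM, n = 2, against 11.6 ± 2.55 RPKM, n = 3; log2 difference 1.07, limma adjusted p = 0.0405, or 0.205 without it). The sh004 and sh003 comparisons with control share their control libraries. All medians in this paragraph are without the block. The sh004 libraries of day 7 share a batch, while the control libraries of that day are of different batches, so batch and knockdown are not fully separated there. Gene length moved with the day 7 comparisons of sh004. Over the tested genes of up to 960 bases the median log2 difference was -0.74 against control and -0.513 against sh003. Over longer genes, grouped by length, the medians ran from -0.136 to -0.009 and from -0.053 to 0.04. Each ribosome biogenesis gene tested measures 1578 bases or more, and the part of length was not tested.

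In spheres, MYC and MXI1 separated the knockdowns. MYC read 23.8 RPKM in the control sphere, 18.6 and 48.1 with sh003, and 3.58 and 2.83 with sh004. MXI1, a repressor partner of MAX, read 7.98 in the control sphere, 16.7 and 20.5 with sh003, and 5.47 and 3.35 with sh004. Between sh004 and sh003 the differences were -3.05 for MYC (SE 0.43, limma adjusted p = 0.00875), 8.26-fold lower with sh004, and -1.99 for MXI1 (SE 0.27, limma adjusted p = 0.00875). MYCL was also called lower, at 0.245 and 0.572 RPKM against 2.25 and 2.59 RPKM (log2 -1.71, SE 0.34, limma adjusted p = 0.0132), and MXD3 higher, at 6.90 and 7.62 RPKM against 4.38 and 2.98 RPKM (log2 0.91, SE 0.24, limma adjusted p = 0.0298). Thus 4 of 10 members were called where 39.9% of all 14711 genes were, so the count of members is near the background.

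MYCN and the remaining members were not called in that comparison. MYCN read 3.48 RPKM in the control sphere, 8.09 and 3.56 with sh003, and 4.05 and 2.83 with sh004, with overlap. In the sh004 spheres MYC thus made up 45.4 to 45.5% of the summed family RPKM, and 64.3 to 88.7% in the sh003 spheres. MAX lay between 12.4 and 15.8 RPKM, MLX between 14.4 and 17.2 RPKM and MXD4 between 18.0 and 30.3 RPKM over the 5 spheres.

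**Figure D4:**
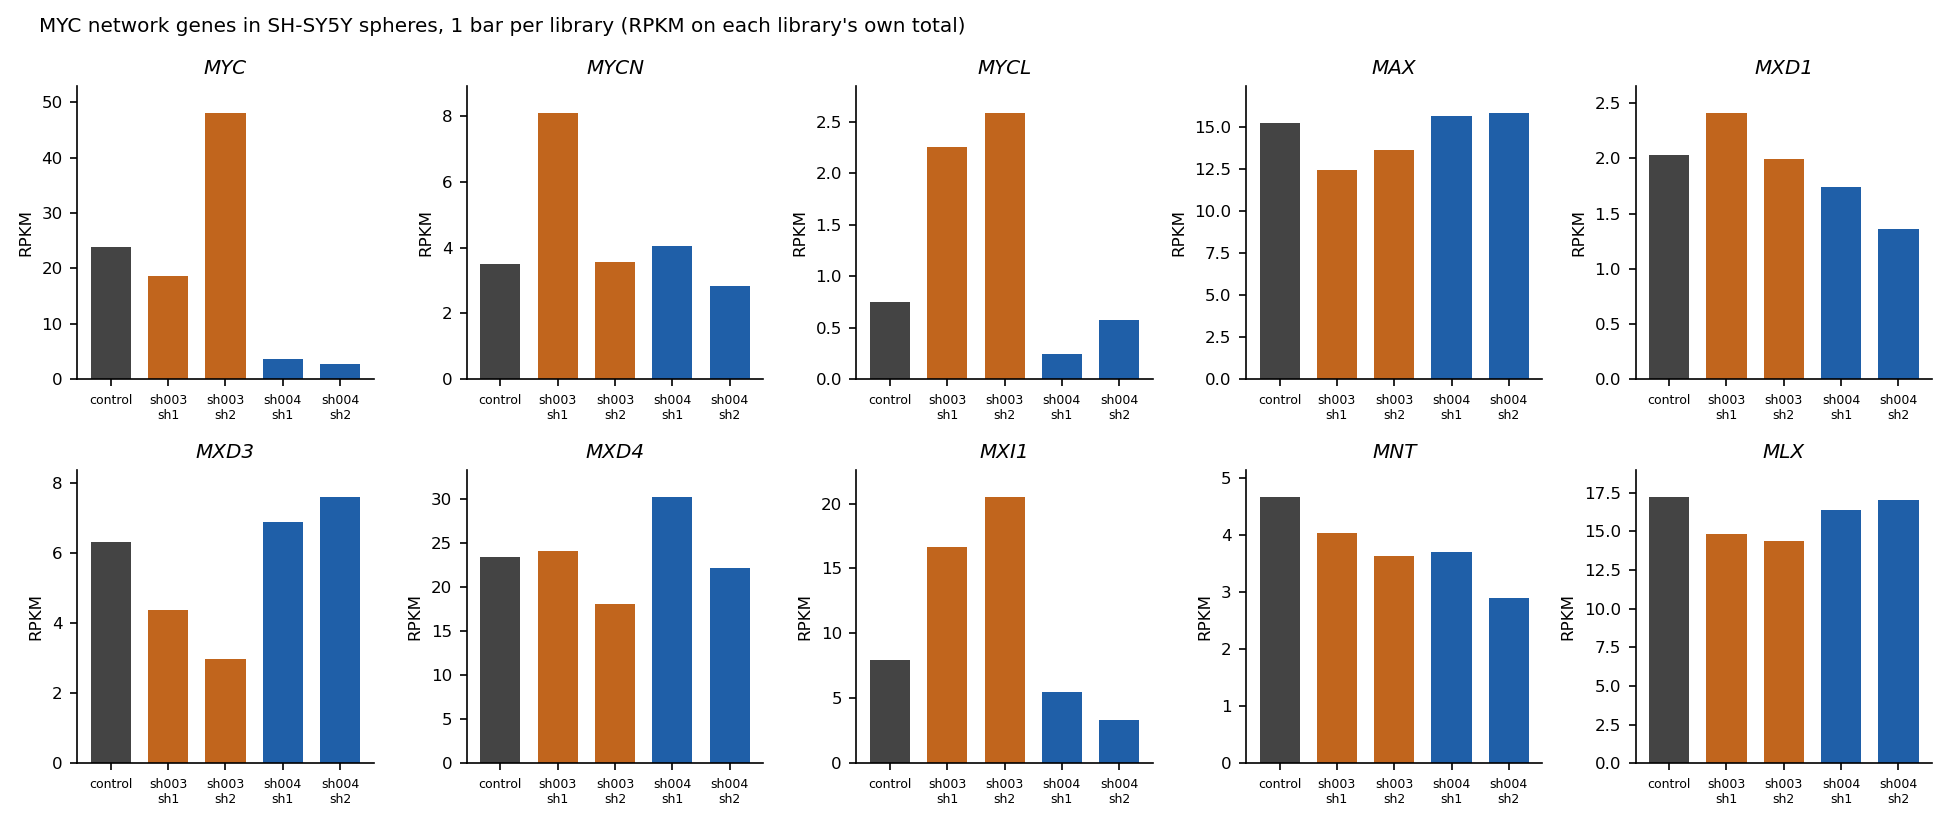
RPKM (vertical axis, from 0) of each member in the 5 SH-SY5Y sphere libraries, 1 bar per library, with values on each library's own read total and no error bar. MYC, MYCL and MXI1 are higher in both sh003 spheres than in both sh004 spheres, and MXD3 is lower.

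Against the single control sphere, whose spread was taken as that of the knockdown pairs, no member was called. MYC was lower in both sh004 spheres (log2 -2.72, SE 0.53, limma adjusted p = 0.105), where 0.129% of genes were called. Leaving out sh003 shRNA 1 or sh003 shRNA 2, which differ 2.58-fold in MYC RPKM, the MYC difference was called (limma adjusted p = 0.0169 and 0.0083). With sh003, 0% of genes were called (2811 at an unadjusted p under 0.05, limma), and MYCL (log2 1.22, limma adjusted p = 0.217) and MXI1 (log2 1.16, limma adjusted p = 0.203) were higher in both spheres than in control. All 4 member calls between sh004 and sh003 were lost without sh004 shRNA 2 (limma adjusted p from 0.0506 to 0.129), and the MXD3 call also without sh003 shRNA 2 (0.125) or sh004 shRNA 1 (0.0876), the latter with the MYCL call (0.058). MYCL did not pass the filter without either sh003 sphere. None of the 4 was called with no filter on low values (limma adjusted p from 0.0798 to 0.126) or with the RPKM as deposited (0.0609 to 0.508).

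Gene length moved with the sphere comparison. Between sh004 and sh003 the median log2 difference was 0.41 over the 25% of tested genes that are shortest and -0.65 over the 25% that are longest, of 6512 bases or more. The 4 called members measure 2995 bases (MYC), 5065 (MYCL), 4607 (MXI1) and 5154 (MXD3), and its part in their calls was not tested. Of 20 metabolism and growth genes 8 were called lower and 1 higher, and of 17 ribosome biogenesis genes 3 lower and 3 higher, shares near the 39.9% of all genes. The metabolism genes were led by the glycolytic enzymes HK2 (33.7 ± 9.91 RPKM with sh003 and 6.64 ± 0.101 with sh004, n = 2 each; log2 -2.23, limma adjusted p = 0.00867) and LDHA (log2 -1.76, limma adjusted p = 0.0116), PAICS (log2 -1.74) and PPAT (log2 -1.71), both of purine synthesis. The called ribosome genes included WDR43 and POLR1B, which were lower, and RRP9 and PES1, which were higher.

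Regulators of MYC protein were among the called genes of the same sphere comparison. Of 11 genes of MYC protein turnover 8 were called lower and 2 higher, against 39.9% of all genes called in either direction. SKP2, a ubiquitin ligase subunit that acts on MYC, read 37.6 ± 9.17 RPKM with sh003 and 8.77 ± 0.128 with sh004 (SD, n = 2 each; log2 -2.02, limma adjusted p = 0.00867), and USP28, a deubiquitinase that stabilises MYC, 7.995 ± 1.28 and 1.69 ± 0.384 RPKM (log2 -1.96, limma adjusted p = 0.00867). STUB1, a chaperone-linked ubiquitin ligase, was higher (log2 1.45, limma adjusted p = 0.00867). In the annotation 42.4% of the STUB1 exon bases overlap JMJD8 on the opposite strand, so the counts of STUB1 are less certain. MGA, a large network protein that pairs with MAX, was lower (log2 -1.30, limma adjusted p = 0.0102). Over tested genes of 6512 bases or more the median log2 difference of this comparison was -0.655, and over those of up to 2249 bases it was 0.411. MGA measures 14513 bases, SKP2 3837, USP28 5719 and STUB1 2316. The turnover genes range from 2287 bases (FBXL14) to 17373 (HUWE1). The part of length in the calls of these genes was not tested. Among 8 tested MYC-repressed genes, CDKN1C, a cyclin-dependent kinase inhibitor, was lower with sh004 against sh003 (3.64 ± 0.150 RPKM against 95.6 ± 30.1; log2 -4.50, limma adjusted p = 0.00627) and against the control sphere (35.2 RPKM; log2 -3.11, limma adjusted p = 0.0391). CLU (log2 3.15, limma adjusted p = 0.00756) and TGM2 (log2 1.54, limma adjusted p = 0.0254) were higher against sh003.

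KELLY cells carried MYCN where SH-SY5Y cells carried MYC. With control siRNA MYCN read 787 RPKM from 52137 reads, and MYC read 0.0655 RPKM from 5 reads (95% Poisson interval 0.0213 to 0.153 RPKM, counting error only). MYCN thus made up 99.9% of the summed family RPKM. The tables were made separately, so this is set beside the SH-SY5Y control of day 0 (MYC 14.1 and MYCN 2.85 RPKM) with no test. MAX read 15.84 RPKM, beside 15.83 in the highest SH-SY5Y library. MXD4 (17.7 RPKM), MXI1 (10.2), MXD3 (3.95) and MNT (3.47) lay within the range of the 20 SH-SY5Y libraries, and MLX (35.0) and MXD1 (3.48) above all of them. The SH-SY5Y libraries gave 9.48 to 17.2 RPKM for MLX and 0.69 to 3.00 RPKM for MXD1.

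**Figure D5:**
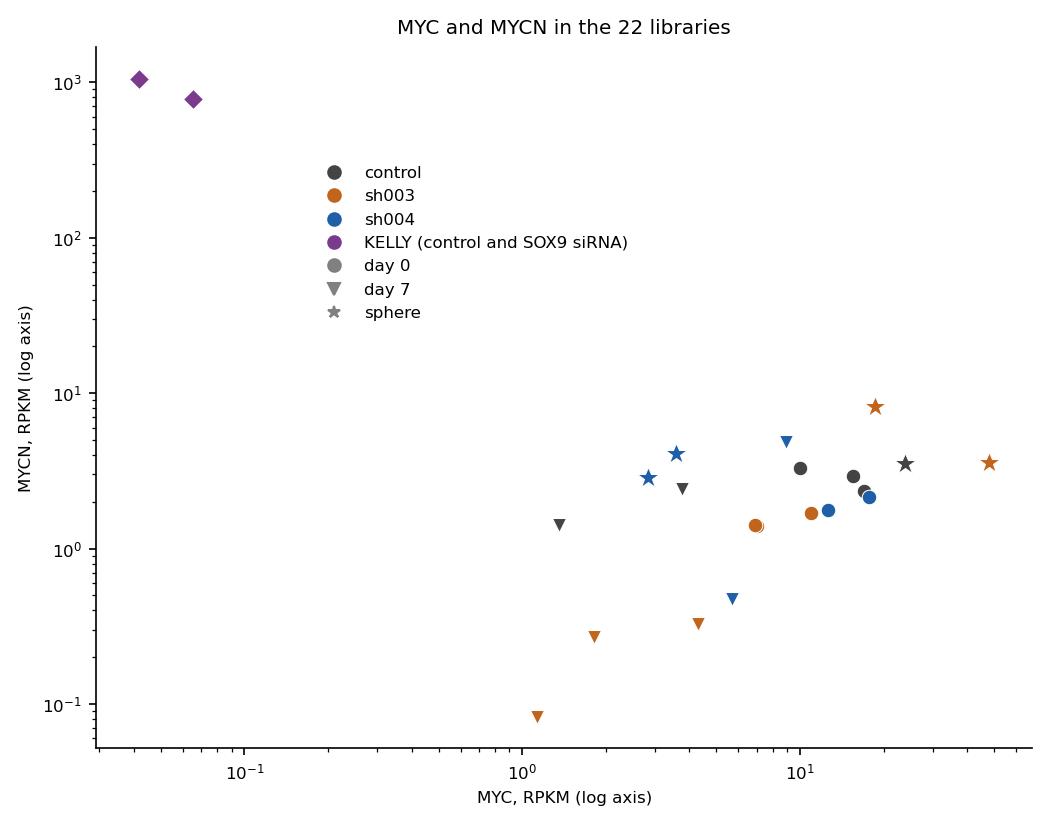
MYC (horizontal axis, RPKM, log scale) against MYCN (vertical axis, RPKM, log scale) in the 22 libraries, with colour for the shRNA group or KELLY and shape for day 0, day 7 or sphere. The 2 KELLY libraries lie at the top left, near 787 and 1052 RPKM of MYCN, and the sh003 libraries of day 7 lie lowest for MYCN, at 0.0831 to 0.327 RPKM.

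With SOX9 siRNA in KELLY, 1 member of the 8 tested passed a 1.5-fold change, a threshold that 11.7% of 14340 genes passed. This was MXD4, at 17.7 RPKM with control siRNA and 11.2 RPKM with SOX9 siRNA, a read ratio of 0.634 (exact Clopper-Pearson 95% interval 0.598 to 0.671). MYCN read 1052 RPKM with SOX9 siRNA, a ratio of 1.34 (1.32 to 1.35). MLX had a ratio of 0.814 (0.776 to 0.855), MXD1 of 0.756 (0.663 to 0.861), MXI1 of 0.842 (0.772 to 0.918) and MAX of 0.898 (0.838 to 0.962). MXD3 (1.13) and MNT (1.1) had intervals that reach below 1. With 1 library each these ratios compare the libraries, and the intervals cover counting error only.

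Neighbours of MYCN at 2p24 were read as context. MYCNOS, its antisense transcript, read 25.3 RPKM with control siRNA and 73.9 with SOX9 siRNA, a ratio of 2.92 (2.75 to 3.10), and at most 0.593 RPKM in SH-SY5Y. It overlaps 98 exon bases of MYCN on the opposite strand, and the strand setting of the counting is not given in the sources used here, so reads of MYCN and MYCNOS cannot be told apart there. DDX1 read 110 and 116 RPKM and NBAS 11.5 and 11.6 RPKM, with ratios near 1. All 17 ribosome biogenesis genes tested read higher with SOX9 siRNA, by a median log2 ratio of 0.21 against 0.05 over all genes, and 1 passed 1.5-fold, RRP9 (22.6 and 38.2 RPKM). Of 19 metabolism and growth genes tested, HK2 (14.8 and 26.3 RPKM) and EIF4A1 (1.17 and 5.02 RPKM) passed it upward and TFAM (18.4 and 12.04 RPKM) downward. EIF4A1 shares 29.8% of its exon bases with a read-through gene and 41.1% with AC016876.2, both on the same strand, so its counts are less certain.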

How the data were processed

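RNA was sequenced in 22 libraries prepared with a stranded kit that removes ribosomal RNA, per the labels' protocols. The deposited values are RPKM, made by the authors with TopHat, featureCounts and Subread on genome build hg19, per the submitters' processing notes, with no versions, order or annotation release. Whole reads were recovered from every value within a tolerance of 0.01. In the sphere table they came out whole only with 10 totals used in rotation over the genes, so sphere RPKM was recomputed on each library's own total. Depth was 11.9 to 62.1 M assigned reads.

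Titles set the groups, also where the status and treatment labels say otherwise, as for 2 sh003 libraries (shRNA 1 of batch 2 at day 7 and shRNA 2 of batch 1 at day 0). Genes at RPKM 1 or above in 2 libraries were kept, 19461 in monolayers and 14711 in spheres, and limma 3.58.1 (R 4.3.3, trended eBayes, Benjamini-Hochberg adjustment over all genes tested) was fitted to log2(RPKM + 0.5) with all groups of a table. The residual degrees of freedom were 9 in monolayers, 7 with the batch block and 2 in spheres. The p-values measure the spread between these libraries only, which may be technical. Batch numbers come from the titles: deviations of control and sh003 libraries correlated at 0.716 to 0.942 within a batch (16 pairs, median 0.819) and at -0.92 to 0.744 between batches (29 pairs, median -0.792). Pairs of batches 2 and 3 gave 0.536 to 0.744. Deviations from the mean of a group of 2 or 3 libraries sum to 0, which partly fixes the signs between batches. These values thus do not decide whether batches 2 and 3 are set apart from each other. The block is printed where it changes a call or a count.

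The fit was run on simulated counts with known changes and no batch effect. Their spread was not taken from these libraries, so that run does not show how the fit performs on these libraries. Another pseudocount, filters, scalings, voom on recovered reads, the block and leaving out libraries were tried. KELLY, with 1 library each, was described at 1.5-fold. Named are all members, up to 4 called genes of each list by size of change, and the 5 genes closest to MYC and to MYCN, of which 1 is not reported here. Members, lists and rules were chosen with earlier results of these data known. Symbols were matched to identifiers with the reference names, and annotation release 29 gave overlaps only. TXNIP, BOP1 and PECAM1 are listed at 0 in all libraries under the matched identifiers.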

Additional observations from a re-analysis of the deposited data

How the results depend on the processing

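The number of members called was recomputed under each alternative. No value changed sign among those called, and of the alternative values of single members 3255 kept their side of the threshold, 52 lost it, 26 gained it and 1 moved. In control cells with retinoic acid the count of 1 became 0 with a pseudocount of 0.1, with no filter on low values, with only the groups compared, without the libraries whose tags contradict the title and without the batch 1 libraries, and ranged from 0 to 1 over single libraries left out. With sh003 the count of 0 became 1 with the filter at 50% of the libraries, with median-ratio scaling, with quantile normalization and with the replicate block plus median-ratio scaling, and 2 with the replicate block alone or with voom, and ranged from 0 to 1 over single libraries left out. With sh004 it became 1 with the replicate block, alone or with voom or median-ratio scaling, and ranged from 0 to 1 over single libraries left out. The block changed no other count of members. Among all genes, 7.68% were called with the block in control, 14.3% with sh003 and 2.11% with sh004. Between sh004 and sh003 at day 7 the count of 0 ranged from 0 to 1 over single libraries left out, where MYCN was called without sh004 shRNA 1 of day 7. In spheres the count for sh004 against control became 1 with only the groups compared, and ranged from 0 to 1 over single libraries left out. The count of 4 for sh004 against sh003 spheres became 0 with no filter on low values and 0 with the RPKM as deposited, and ranged from 0 to 4 over single libraries left out. The cause of these changes was not tested. Leaving out batch 1, and joining the block with voom, with median-ratio scaling or with single libraries left out, were chosen after seeing the data. The count stayed 0 in the other knockdown comparisons and 1 in KELLY. Scaling moved the median log2 difference of all genes by up to -0.17 in control with retinoic acid and 0.25 for sh004 at day 7. Depth limits MYCN and MYCL at day 7, where single libraries held as few as 6 and 12 reads.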
